A study of Mus musculus with 21 samples.

Results

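The transforming growth factor beta (TGF-β) pathway was described in macrophages sorted from mouse kidneys through 9 genes: the ligands Tgfb1, Tgfb2 and Tgfb3, the receptors Tgfbr1, Tgfbr2 and Tgfbr3, and the response genes Smad7, Ctgf and Tgfbi. They were chosen by symbol from the 34236 gene symbols of the count table, and all 9 were found, each on 1 line of the table. RNA sequencing covered 21 libraries from male C57BL/6J mice, labelled as 24 weeks old with 5 hours of flow sorting. RAS kidneys carried a renal artery stenosis, made by a tube placed around the right renal artery, and Sham kidneys came from animals with control surgery. All cells were F4/80+CD64+ macrophages, split by CD11b and CD11c into the monocyte-derived CD11chiMϕ (CD11b high, CD11c high; 3 Sham and 4 RAS libraries), the monocyte-derived CD11cloMϕ (CD11b high, CD11c low or negative; 3 Sham and 4 RAS libraries) and kidney-resident macrophages (KRM, intermediate for both; 4 Sham and 3 RAS libraries). The labels name no transgene and no other treatment, and do not say whether each library came from its own animal, so p-values measure the spread between these libraries.

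TGF-β ligands are secreted in a latent complex, and once released they bind the type II receptor, which recruits and phosphorylates the type I receptor. The type I receptor passes the signal to SMAD transcription factors, which switch on target genes, among them inhibitors that close the loop. In the kidney the pathway is best known for driving matrix deposition and fibrosis, and in macrophages it is tied to tissue residence and to the uptake of dying cells.

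Levels are given in CPM, counts scaled to library size with TMM factors. Totals ran from 6891142 to 18592381 counts per library. At these totals 3 counts, the limit that a count of 0 allows, corresponded to 0.150 to 0.476 CPM, which covers counting error only. Several libraries stood apart in markers of other cells, counted as the summed CPM of a list. Of the CD11chiMϕ Sham libraries, replicate 3 held 11778 CPM of 8 proximal tubule markers against 178 and 213 in the others, and 2084 CPM of 7 macrophage markers against 4596 and 6070. CD11cloMϕ Sham 3 and KRM Sham 3 also led their groups in proximal tubule markers, at 4053 and 1809 CPM, where the other Sham libraries of these populations held 102 to 290. Among KRM from RAS kidneys, replicate 1 held 134 CPM of 7 distal tubule markers, where replicates 2 and 3 held 4694 and 3512, and 44.8 CPM of 8 fibroblast and pericyte markers against 368 and 455. The column of replicate 1 correlated between the deposited count and log2 tables at only 0.672, against 0.895 to 0.935 in the other libraries. Its counts were most like the log2 column of KRM Sham 4 (0.868) and its log2 values most like the counts of CD11chiMϕ RAS 2 (0.760), so it may not be the same sample in both tables. The tests below use the counts, and results that rest on this library are given with and without it. Macrophage markers summed to 9372 CPM in CD11cloMϕ RAS 3 against 4463 to 5350 in the other RAS libraries of that population, and in CD11chiMϕ RAS 1 to 5083 against 2095 to 2491. In sorted bulk samples, fewer cells of a type and less RNA per cell cannot be told apart.

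In the GENCODE vM21 annotation of GRCm38 (mm10) the ligand genes lie at chr7:25687002-25705077 on the plus strand (Tgfb1), chr1:186622792-186705989 on the minus strand (Tgfb2) and chr12:86056745-86079041 on the minus strand (Tgfb3). The receptor genes lie at chr4:47353222-47414931 (Tgfbr1, plus strand), chr9:116084293-116175360 (Tgfbr2, minus strand) and chr5:107106570-107289629 (Tgfbr3, minus strand). Of the response genes, Ctgf, annotated under its newer symbol Ccn2, lies at chr10:24595442-24598683 and Tgfbi at chr13:56609523-56639562, both on the plus strand. The library kit does not mark strand, so reads in exons shared with a gene of the other strand cannot be told apart. Such shared exons, all with non-coding genes, covered 665 bases for Ctgf (Gm15270), 257 and 163 for Tgfb3 (Gm48008 and Gm37804) and 124 for Tgfb2 (Gm29491), and Tgfbr3 shared 297 bases with Gm43422 on its own strand.

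RefSeq promoter windows on GRCm38.p6 were read for 5 of the 9 genes, and 3 are shown because Tgfbr1 and Tgfbr2 moved closely together across the libraries while Tgfb2 did not follow them. Each run is the 250 bases before the transcription start, 5′ to 3′ on the strand of the gene, with capitals marking any match, on either strand, to CAGAC (the SMAD-binding CAGA box), GAGGAA (the core bound by the macrophage factor PU.1), TGAGTCA (AP-1) or CACGTG (E-box).
Tgfb2, chr1:186705990-186706239, minus strand: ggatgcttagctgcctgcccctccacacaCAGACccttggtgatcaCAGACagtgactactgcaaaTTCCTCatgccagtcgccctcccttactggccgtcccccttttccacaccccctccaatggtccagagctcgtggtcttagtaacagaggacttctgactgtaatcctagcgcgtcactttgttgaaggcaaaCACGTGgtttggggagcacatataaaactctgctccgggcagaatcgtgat
Tgfbr1, chr4:47352972-47353221, plus strand: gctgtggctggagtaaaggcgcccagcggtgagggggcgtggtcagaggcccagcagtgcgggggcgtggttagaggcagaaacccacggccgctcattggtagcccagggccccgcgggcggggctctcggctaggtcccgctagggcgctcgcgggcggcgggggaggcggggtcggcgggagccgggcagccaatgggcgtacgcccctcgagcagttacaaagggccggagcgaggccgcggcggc
Tgfbr2, chr9:116175364-116175613, minus strand: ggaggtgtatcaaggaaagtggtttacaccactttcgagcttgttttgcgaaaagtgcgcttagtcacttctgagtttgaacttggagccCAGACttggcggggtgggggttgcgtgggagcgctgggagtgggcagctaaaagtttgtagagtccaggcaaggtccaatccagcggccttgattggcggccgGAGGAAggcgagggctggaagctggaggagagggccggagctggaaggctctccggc
The Tgfb2 window held CAGAC at 221 to 217 and at 204 to 200 bases before the start, GAGGAA on the opposite strand at 184 to 179, and CACGTG at 51 to 46. The Tgfbr2 window held CAGAC at 160 to 156 and GAGGAA at 57 to 52 bases before the start. The Tgfbr1 window shown, at the start of the annotated gene and with a GC content of 74.8% against a median of 52.4% over all windows, held none of the letters searched. A second RefSeq window of Tgfbr1, at chr4:47385966-47386215 inside the gene and with a GC content of 52.8%, held CAGAC at 203 to 199 and GAGGAA at 95 to 90 bases before its start. Of 32851 windows of the same length, 42.2% held CAGAC, 23.3% GAGGAA, 6.0% CACGTG and 4.5% TGAGTCA, so these matches are common and describe the letters only.

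Between genes, levels were compared per transcript length with the second deposited table, as means of log2(TPM + 1). Tgfbi, a secreted matrix protein induced by TGF-β, was the highest of the 9 in all 6 groups, with group means of 7.64 to 9.72. In KRM from Sham kidneys Tgfbr1 (8.72 ± 0.56, SD, n = 4) and Tgfbr2 (8.0 ± 0.27) came next, ahead of Tgfb1 (7.36 ± 0.10). In CD11cloMϕ from Sham kidneys the order was turned, with Tgfb1 at 7.52 ± 0.10 (SD, n = 3) ahead of Tgfbr2 at 5.68 ± 0.17 and Tgfbr1 at 4.87 ± 0.21. Neighbours whose library ranges overlapped were Tgfbr1 (7.89 to 9.12) and Tgfbr2 (7.60 to 8.19) in KRM, and Ctgf, Tgfbr3 and Tgfb2 at the low end, while in CD11cloMϕ the ranges of Tgfb1, Tgfbr2 and Tgfbr1 did not overlap. In Sham KRM Tgfb3 followed at 3.49 ± 0.19, and Tgfb2 at 0.29 ± 0.33 was the lowest of all 9 there. Counts per kilobase of exon gave the same rank for 9 of 9 genes in Sham KRM and for 7 of 9 in Sham CD11cloMϕ.

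**Figure D1:**
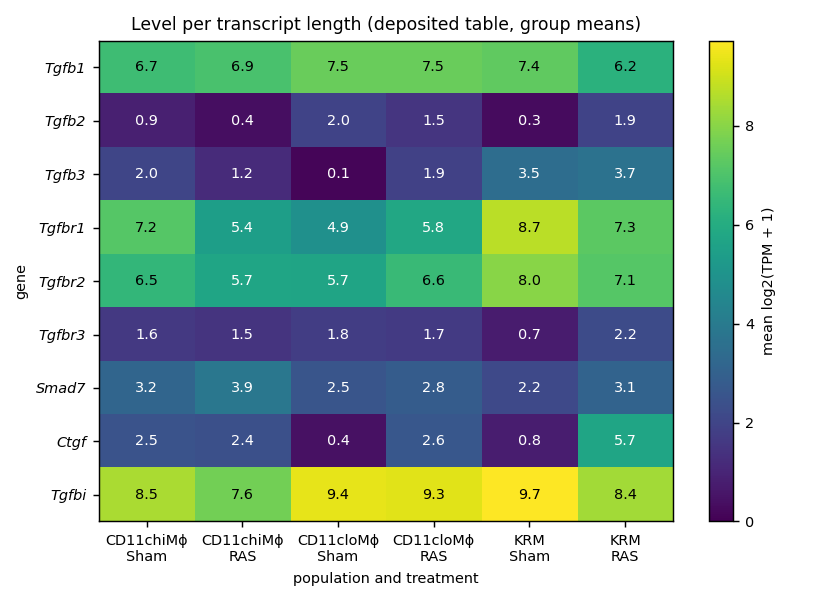
Mean log2(TPM + 1) of the 9 genes (vertical axis) in the 6 groups of population and treatment (horizontal axis) from the deposited length-scaled table, with colour and printed value both giving the group mean. Tgfbi is highest in every group, and the KRM RAS column includes replicate 1, whose values do not match between the deposited tables.

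Between KRM and CD11cloMϕ of Sham kidneys, edgeR's quasi-likelihood test called 6 of the 8 genes tested at an adjusted p under 0.05, where 41.9% of all 12365 genes were called. Between KRM and CD11chiMϕ of Sham kidneys 2 of 9 were called against a background of 5.13%, and between CD11chiMϕ and CD11cloMϕ of Sham kidneys 1 of 9 against 1.52%. In RAS kidneys the counts were 1 of 9 for KRM against CD11chiMϕ (background 9.23%), 0 of 9 for KRM against CD11cloMϕ (9.17%) and 2 of 9 for CD11chiMϕ against CD11cloMϕ (8.27%). RAS against Sham gave 4 of 8 in KRM, where 9.7% of genes were called, and 0 of 9 in CD11chiMϕ and in CD11cloMϕ, where 0% of all genes were called. For KRM against CD11cloMϕ of RAS kidneys 3 of the 9 had an unadjusted p under 0.05 (background 32.9%) and DESeq2 called 3 (24.5%). For RAS against Sham the unadjusted counts were 1 in CD11chiMϕ (background 9.79%) and 4 in CD11cloMϕ (8.96%), and DESeq2 called 0 (background 1.57%) and 1 (0.883%). A rule after the study's own selection, an unadjusted p under 0.05 with a fold above 2 but from edgeR, took in 6 members for KRM against CD11chiMϕ (background 12.5%), 5 for KRM against CD11cloMϕ (25.2%) and 4 for CD11chiMϕ against CD11cloMϕ (12.6%) of Sham kidneys. In RAS kidneys it took in 4 (20.8%), 2 (20.3%) and 3 (14.2%) for the same pairs. For RAS against Sham it took in 3 in KRM (16.4%), 1 in CD11chiMϕ (8.07%) and 4 in CD11cloMϕ (4.37%). Leaving out 1 library also moved the share of all genes called, which the values given below without a library read against. For RAS against Sham in KRM it was 50.2% without KRM RAS 1, 10.6% without KRM Sham 3 and 0.204% to 0.338% without any of the other 5. Without KRM RAS 1 it was 19.6% for KRM against CD11chiMϕ and 23% for KRM against CD11cloMϕ of RAS kidneys. It was 17.6% for KRM against CD11chiMϕ without CD11chiMϕ RAS 1, and 16.2% for KRM against CD11cloMϕ without CD11cloMϕ RAS 3. Between KRM and CD11chiMϕ of Sham kidneys it was 6.95% without CD11chiMϕ Sham 2, 13.6% without CD11chiMϕ Sham 3 and 1.27% to 1.84% without any of the others. Comparisons that share a group also share its libraries.

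**Figure D2:**
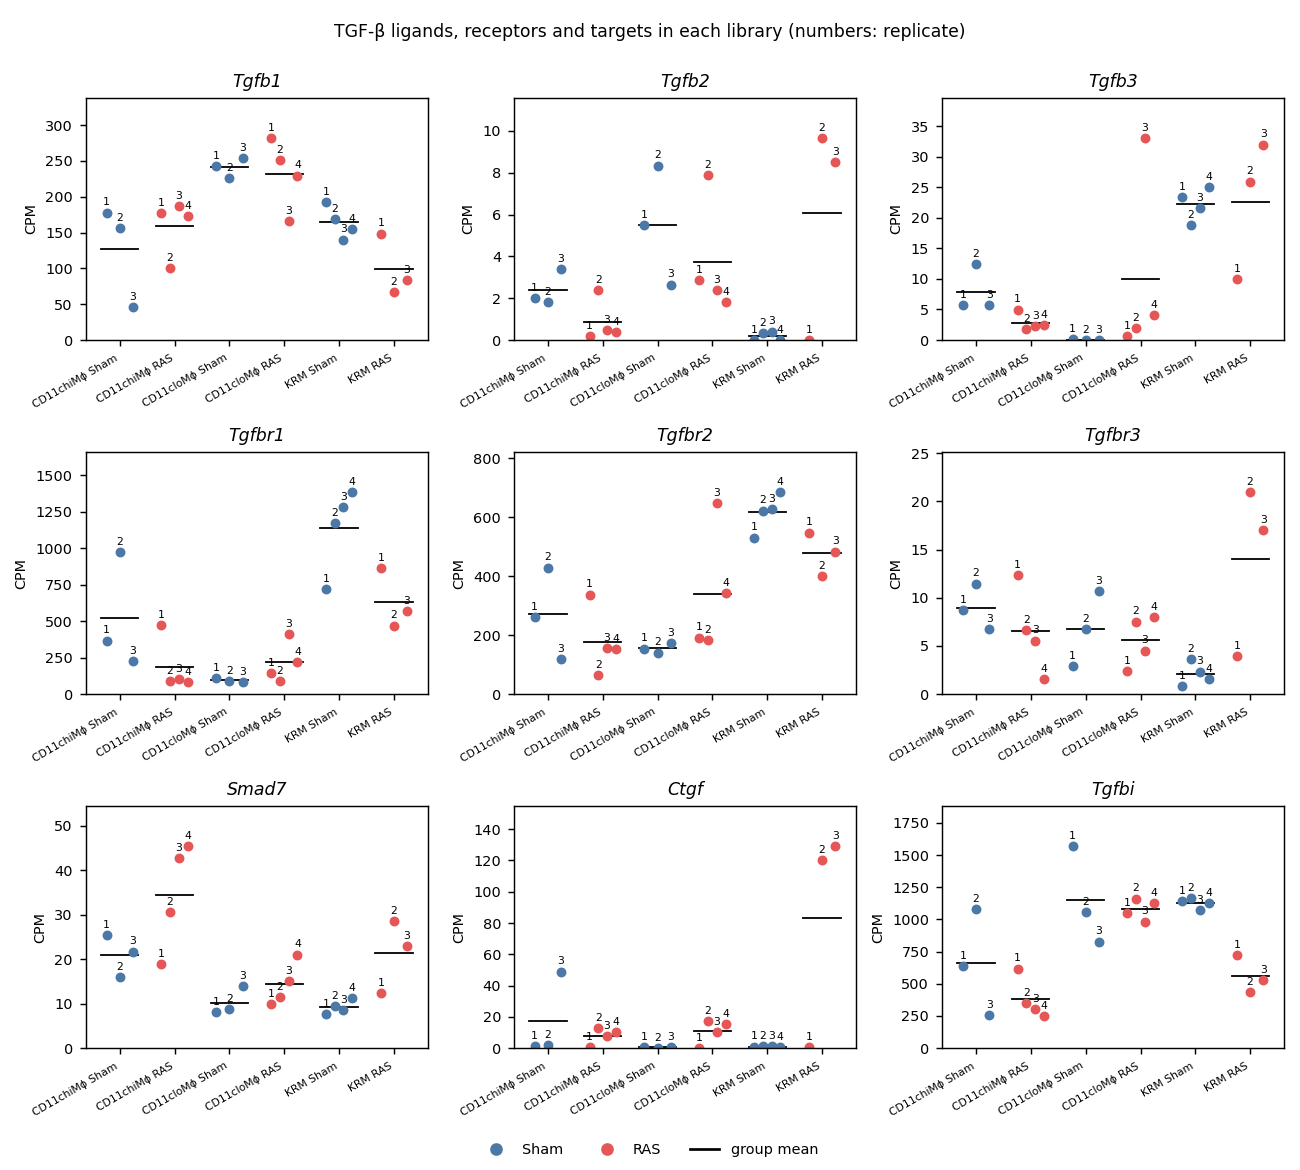
CPM (vertical axis, linear, a separate scale for each gene) of the 9 genes in each of the 21 libraries, by population and treatment, with blue points for Sham, red points for RAS, replicate numbers beside the points and bars at the group means. Tgfbr1 and Tgfbr2 are highest in Sham KRM, and Ctgf is at 120 and 129 CPM in KRM RAS 2 and 3 and at 48.8 CPM or less in every other library.

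**Figure D3:**
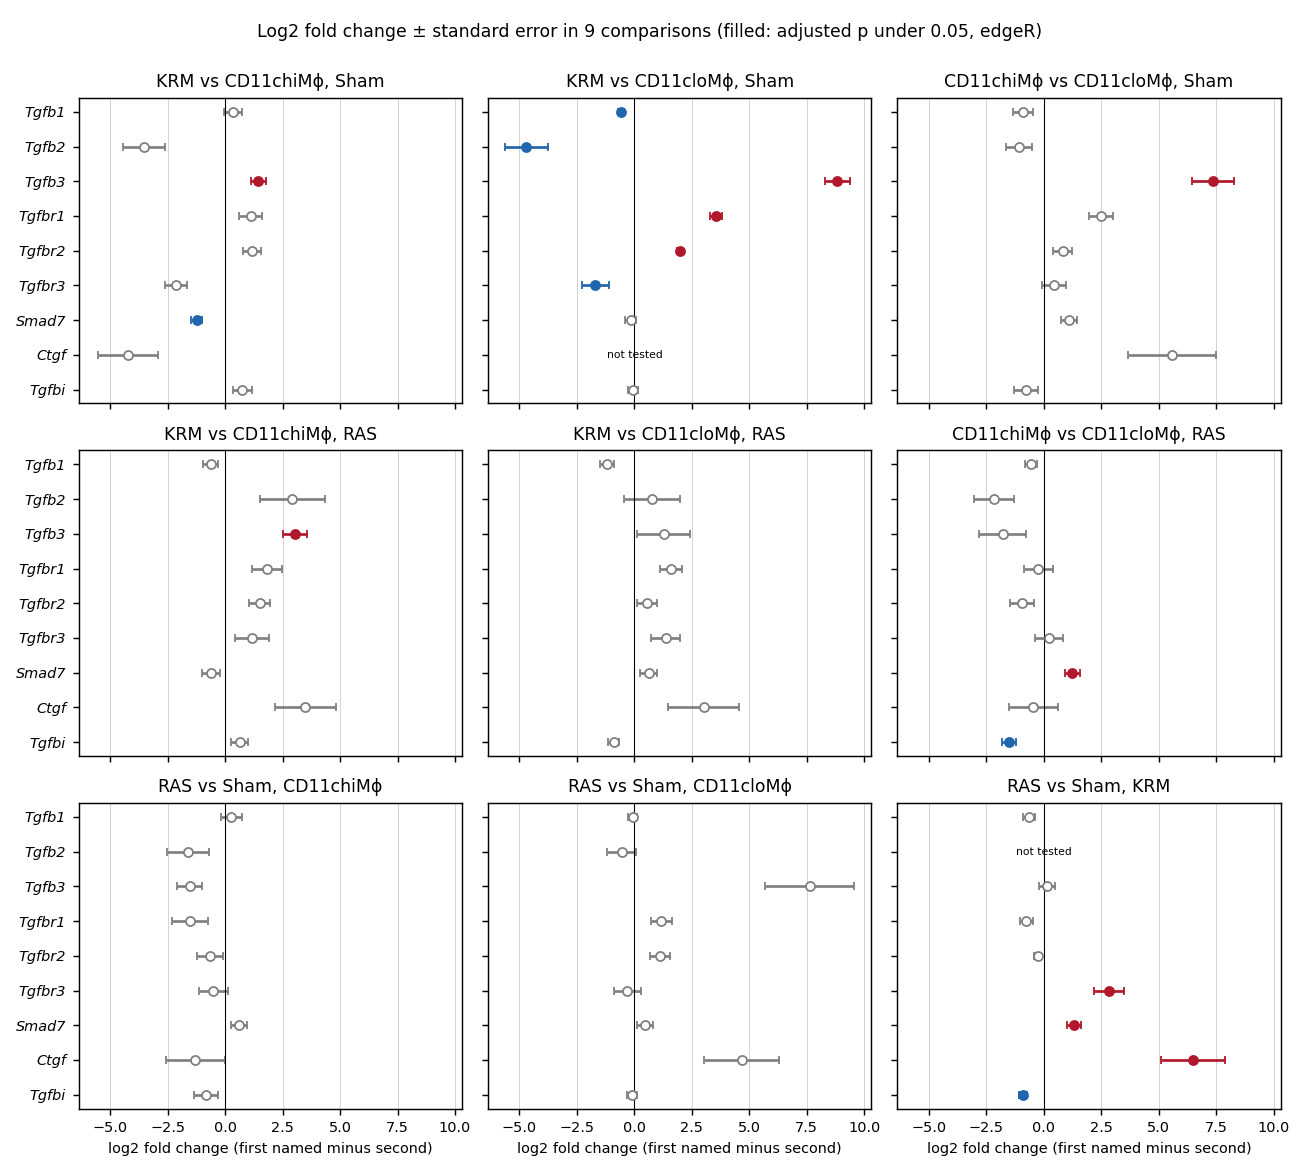
Log2 fold change of each gene (horizontal axis, the group named first minus the second, with standard error bars) in 9 comparisons, where filled points passed an adjusted p of 0.05 in edgeR, red for higher and blue for lower, and open grey points did not. The largest values, for Tgfb3 against Sham CD11cloMϕ, rest on a group with 1 count in all.

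Tgfb1, the ligand made by most immune cells, was lower in KRM than in CD11cloMϕ of Sham kidneys. It stood at 193, 169, 140 and 155 CPM in KRM and at 243, 226 and 254 CPM in CD11cloMϕ. The ranges did not overlap, and the log2 fold change was −0.58 ± 0.12 (SE), with an adjusted p of 0.00688 by edgeR. The call was lost in a single fit over all 6 groups, which share 1 estimate of the spread (−0.55, adjusted p = 0.279), and the fold was below the 2 that the rule after the study's selection asks for. Markers of other myeloid cells and platelets also stood apart between these groups. In Sham CD11cloMϕ the 6 monocyte markers summed to 3616 to 8903 CPM, against 543 to 841 CPM in Sham KRM, and the 6 neutrophil markers to 678 to 1595 against 3.0 to 6.9 CPM. The 10 serous macrophage markers summed to 1501 to 1989 against 21.2 to 26.1 CPM, and the 5 platelet markers to 106 to 160 against 44.0 to 64.5 CPM. Their part in the differences between Sham KRM and Sham CD11cloMϕ was not tested. CD11chiMϕ of Sham kidneys spread from 46.1 CPM in replicate 3, the library rich in tubule markers, to 156 and 178 CPM, and the comparison with KRM gave 0.34 ± 0.40 (adjusted p = 0.605). In RAS kidneys KRM stood at 148, 66.4 and 83.2 CPM and CD11cloMϕ at 282, 251, 166 and 230 CPM. These groups did not overlap either, differing by −1.19 ± 0.32 on the log2 scale with an adjusted p of 0.0544 by edgeR, which reached 0.0140 without KRM RAS 1 and 0.0381 without CD11cloMϕ RAS 3. RAS against Sham in KRM gave −0.63 ± 0.27 (adjusted p = 0.143), with RAS replicate 1 inside the Sham range. Without that replicate the value was −1.06 (adjusted p = 0.00140). In the log2 table, all 3 RAS libraries, at 6.29, 5.97 and 6.41, lay below the Sham libraries, at 7.26 to 7.48.

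Tgfb2, a ligand best known from development and from epithelial and mesenchymal cells, was near the detection limit in Sham KRM. It stood at 0, 0.317, 0.399 and 0 CPM there, 11 counts in all, and at 5.48, 8.35 and 2.65 CPM in Sham CD11cloMϕ. No KRM library reached the lowest CD11cloMϕ library, and the log2 fold change was −4.70 ± 0.92 (adjusted p = 0.00428, edgeR). Sham CD11chiMϕ lay between, at 2.00, 1.81 and 3.39 CPM, and its comparison with KRM gave −3.54 ± 0.91 with an adjusted p of 0.0732. In RAS kidneys KRM split in the counts into 0 CPM in replicate 1 and 9.65 and 8.52 CPM in replicates 2 and 3. The log2 table showed no such split, with log2(TPM + 1) of 1.60, 1.99 and 2.25 in replicates 1 to 3 and at most 0.62 in Sham KRM. The gene did not pass the filter on low counts for RAS against Sham in KRM. Without that filter the log2 fold change was 4.87 ± 1.48 (adjusted p = 0.0722, edgeR), and without KRM RAS 1 the gene passed the filter at 5.41 ± 0.75 (adjusted p = 9.31e-04). In the single fit over all 6 groups, with every library kept, Tgfb2 was called at 4.86 ± 1.28 (adjusted p = 0.0294, edgeR). The other macrophages of RAS kidneys held 0.187, 2.38, 0.473 and 0.364 CPM in CD11chiMϕ and 2.88, 7.87, 2.37 and 1.82 CPM in CD11cloMϕ.

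Tgfb3, the third ligand isoform, was higher in KRM than in either other population of Sham kidneys. KRM held 23.3, 18.8, 21.5 and 25.0 CPM, CD11chiMϕ 5.70, 12.4 and 5.65 CPM, and CD11cloMϕ 0.103, 0 and 0 CPM, which is 1 count over 3 libraries. The 3 populations of Sham kidneys did not overlap in this gene. KRM exceeded CD11chiMϕ by 1.44 ± 0.32 on the log2 scale (adjusted p = 0.0457, edgeR). That call was lost without CD11chiMϕ Sham 1 or without any of the 4 KRM libraries, at adjusted p-values of 0.113 to 0.149, and on blocking by replicate number at 0.175. It was also lost with scaling by total library size (0.0728), without the filter on low counts (0.0736) and in the single fit over 6 groups (0.303). Between these groups dendritic cell markers summed to 342 to 1736 CPM in CD11chiMϕ and 83.4 to 108 CPM in KRM, serous macrophage markers to 173 to 458 and 21.2 to 26.1 CPM, and macrophage markers to 2084 to 6070 and 8602 to 10966 CPM. Their part in the differences between Sham KRM and Sham CD11chiMϕ was not tested. Against CD11cloMϕ the fitted changes were 8.83 ± 0.54 for KRM (adjusted p = 1.03e-05) and 7.37 ± 0.93 for CD11chiMϕ (adjusted p = 0.0295), both set in part by the prior count of the fit. Summed counts gave a ratio of 611 for KRM to CD11cloMϕ, with a 95% counting interval of 109 to 24138. For CD11chiMϕ to CD11cloMϕ the ratio was 220, with an interval of 39.0 to 8718, and the edgeR call was lost without any library other than CD11chiMϕ Sham 3 (adjusted p of 0.0790 to 0.213), and without the filter on low counts (0.0518).

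In RAS kidneys Tgfb3 was still higher in KRM than in CD11chiMϕ. KRM stood at 10.02, 25.9 and 32.0 CPM and CD11chiMϕ at 4.97, 1.74, 2.25 and 2.43 CPM. The groups did not overlap, and the log2 fold change was 3.05 ± 0.52 (adjusted p = 0.0246, edgeR). It was 3.37 without KRM RAS 1 (adjusted p = 0.00246) and 3.50 without CD11chiMϕ RAS 1 (0.00901), and the call was lost without any of the other 5 libraries (0.0555 to 0.128) and on blocking by replicate number (0.102). Dendritic cell markers summed to 962 to 5078 CPM in CD11chiMϕ and 110 to 167 CPM in KRM, and the 7 distal tubule markers to 29.3 to 169 and 134 to 4694 CPM, and their part in the result was not tested. CD11cloMϕ of RAS kidneys held 0.618, 1.91, 33.0 and 4.14 CPM, with replicate 3, the library with the highest macrophage marker sum of its group, far above the rest. Against KRM they gave 1.28 ± 1.15 (adjusted p = 0.464), which was 3.42 without CD11cloMϕ RAS 3 (adjusted p = 0.0366). Within KRM, RAS and Sham libraries overlapped, and the change was 0.15 ± 0.36 (adjusted p = 0.797).

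Tgfbr1, the type I kinase receptor that phosphorylates SMAD proteins, was 11.7-fold higher in KRM than in CD11cloMϕ of Sham kidneys. KRM held 720, 1173, 1284 and 1383 CPM and CD11cloMϕ 111, 91.1 and 84.3 CPM. Every KRM library lay above every CD11cloMϕ library, by a log2 fold change of 3.55 ± 0.27 (adjusted p = 2.87e-05, edgeR). Sham CD11chiMϕ were uneven, at 366, 974 and 224 CPM, with replicate 2 above the lowest KRM library. Their comparison with KRM gave a log2 fold change of 1.10 ± 0.50 for KRM (adjusted p = 0.225), which passed without CD11chiMϕ Sham 2 at 1.91 (adjusted p = 0.0406). Against CD11cloMϕ they gave 2.50 ± 0.54 (adjusted p = 0.0879), which was called on blocking by replicate number (2.25, adjusted p = 0.0424) and without CD11chiMϕ Sham 3 (2.81, adjusted p = 0.0206).

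Tgfbr2, the type II receptor that binds the ligand, was also higher in KRM than in CD11cloMϕ of Sham kidneys. It stood at 531, 623, 627 and 685 CPM in Sham KRM and at 154, 141 and 172 CPM in Sham CD11cloMϕ. These groups were far apart, by 1.96 ± 0.13 on the log2 scale (adjusted p = 1.71e-05, edgeR), a 3.90-fold difference. Sham CD11chiMϕ held 262, 429 and 120 CPM, all below KRM, by a log2 fold change of 1.16 ± 0.38 for KRM and an adjusted p of 0.126. That difference was called without CD11chiMϕ Sham 2 (1.65, adjusted p = 0.0464) and without CD11chiMϕ Sham 3 (0.83, adjusted p = 0.0398). Sham CD11chiMϕ against CD11cloMϕ gave 0.84 ± 0.41 (adjusted p = 0.362, edgeR). These groups overlapped, with CD11chiMϕ Sham 3 below every CD11cloMϕ library.

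In RAS kidneys receptor levels were uneven among the libraries of CD11chiMϕ and of CD11cloMϕ. Tgfbr1 stood at 475, 87.9, 102 and 81.3 CPM in CD11chiMϕ and at 144, 91.0, 412 and 222 CPM in CD11cloMϕ, against 861, 469 and 568 CPM in KRM. Tgfbr2 stood at 338, 64.9, 155 and 154 CPM in CD11chiMϕ and at 192, 182, 647 and 344 CPM in CD11cloMϕ, against 548, 401 and 483 CPM in KRM. CD11chiMϕ RAS 1 and CD11cloMϕ RAS 3, the highest of their groups for both receptors, were also those with the highest macrophage marker sums of their groups, and the part of that in the receptor levels was not tested. The log2 fold changes of KRM over CD11chiMϕ were 1.83 ± 0.65 for Tgfbr1 (adjusted p = 0.109, edgeR) and 1.49 ± 0.47 for Tgfbr2 (adjusted p = 0.0790). Without CD11chiMϕ RAS 1 both were called, at 2.90 (adjusted p = 0.00335) and 2.04 (adjusted p = 0.0146). Over CD11cloMϕ the value for Tgfbr1 was 1.59 ± 0.48 (adjusted p = 0.0726), which was called without CD11cloMϕ RAS 3 at 2.11 (adjusted p = 0.0223).

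RAS against Sham called neither receptor in any population. In KRM the changes were −0.75 ± 0.28 for Tgfbr1 (adjusted p = 0.111, edgeR) and −0.26 ± 0.15 for Tgfbr2 (adjusted p = 0.250). For Tgfbr1 the groups overlapped in the counts through RAS replicate 1. In the log2 table they did not overlap, at 6.55 to 7.79 in RAS KRM and 7.89 to 9.12 in Sham KRM. Without KRM RAS 1 the Tgfbr1 change was −1.07 (adjusted p = 0.0128), and macrophage markers of the remaining RAS libraries summed to 4565 and 5564 CPM, against 8602 to 10966 CPM in Sham KRM. The part of these markers in the result was not tested. In CD11cloMϕ Tgfbr1 and Tgfbr2 gave 1.18 ± 0.47 and 1.11 ± 0.45, each with an adjusted p of 0.553.

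Tgfbr3 (betaglycan), a co-receptor that presents ligand, Tgfb2 above all, to the signaling receptors, was the one receptor lower in Sham KRM. It stood at 0.842, 3.60, 2.34 and 1.57 CPM in KRM and at 2.89, 6.72 and 10.7 CPM in CD11cloMϕ. The ranges overlapped, with KRM Sham 2 above CD11cloMϕ Sham 1, and the log2 fold change was −1.70 ± 0.57 (adjusted p = 0.0441, edgeR). The call held without CD11cloMϕ Sham 1 or KRM Sham 2 and was lost without any of the other 5 libraries, at adjusted p-values of 0.0775 to 0.119. It was also lost with scaling by total library size (0.0544), without the filter on low counts (0.0639), in the single fit over 6 groups (0.0745) and with the Sham 3 libraries left out together (0.115, chosen after seeing the data). Sham CD11chiMϕ held 8.70, 11.5 and 6.78 CPM, all above KRM. That difference was −2.13 ± 0.49 for KRM with an adjusted p of 0.0516, and −2.26 without CD11chiMϕ Sham 3 (adjusted p = 0.0234).

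In RAS kidneys Tgfbr3 in KRM rose 7.18-fold over Sham. The RAS libraries held 3.93, 20.9 and 17.0 CPM, all above the 4 Sham libraries, with replicate 1 just above them. In the log2 table replicate 1 was level with the others, at 2.06 against 2.40 and 2.15, and Sham KRM reached at most 1.13. The log2 fold change was 2.84 ± 0.65 (adjusted p = 0.0387, edgeR), and 3.23 without KRM RAS 1 (adjusted p = 9.41e-04). Without any of the other 6 libraries the call was lost, at adjusted p-values of 0.0551 to 0.146, as it was on blocking by replicate number (0.0739). For RAS against Sham this block joins libraries of different animals, and same-numbered Sham and RAS KRM libraries correlated in their deviations at −0.167 to 0.211. The study names Tgfb2, Tgfbr3 and Ctgf among the repair genes raised in RAS KRM from these same libraries, so the choice of these genes is not independent of the values. CD11chiMϕ and CD11cloMϕ of RAS kidneys held 1.58 to 12.4 and 2.37 to 8.03 CPM, overlapping their Sham libraries.

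Smad7, the inhibitory SMAD that TGF-β signaling induces and that blocks the type I receptor, was lower in KRM than in CD11chiMϕ of Sham kidneys. KRM held 7.70, 9.42, 8.53 and 11.3 CPM and CD11chiMϕ 25.4, 15.93 and 21.7 CPM. The groups did not overlap and differed by −1.24 ± 0.24 on the log2 scale (adjusted p = 0.0312, edgeR). Blocking by replicate number gave an adjusted p of 0.153, and the call was lost without CD11chiMϕ Sham 1 or without any of the 4 KRM libraries (0.0770 to 0.128), without the filter on low counts (0.0602) and in the single fit over 6 groups (0.0558). The dendritic, serous macrophage and macrophage marker sums given for Tgfb3 stood apart between the same libraries. CD11cloMϕ of Sham kidneys, at 8.17, 8.69 and 13.9 CPM, overlapped KRM.

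In RAS kidneys Smad7 rose 2.49-fold in KRM. In the counts the RAS libraries held 12.4, 28.6 and 22.9 CPM, all above the Sham libraries, by a log2 fold change of 1.32 ± 0.30 (adjusted p = 0.0379, edgeR). It was 1.55 without KRM RAS 1 (adjusted p = 7.07e-04), and the call was lost without any of the other 6 libraries (0.0602 to 0.152) or on blocking by replicate number (0.117). In the log2 table the groups overlapped, at 2.33 to 3.81 in RAS KRM and 2.04 to 2.39 in Sham KRM. CD11chiMϕ of RAS kidneys, at 18.9, 30.6, 42.7 and 45.4 CPM, exceeded CD11cloMϕ, at 9.88, 11.4, 15.03 and 21.04 CPM. Replicate 1 of the former lay below replicate 4 of the latter, and the log2 fold change was 1.25 ± 0.34 (adjusted p = 0.0486, edgeR). That call held without CD11chiMϕ RAS 1 (adjusted p = 0.0126) and was lost without any of the other 7 libraries (0.0578 to 0.141) and with median-of-ratios size factors (0.0504). Dendritic cell markers summed to 962 CPM in CD11chiMϕ RAS 1 and to 1933 to 5078 CPM in the other 3, and to 83.3 to 376 CPM in CD11cloMϕ, with all 6 genes counted in every CD11chiMϕ library. Their part in the result was not tested.

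Ctgf, a matricellular protein and a standard TGF-β target of mesenchymal and epithelial cells, had the largest fold change of the 8 genes tested for RAS against Sham in KRM. It stood at 0.962, 1.27, 1.25 and 0.418 CPM in Sham KRM and at 0.491, 120 and 129 CPM in RAS KRM. In the counts, replicate 1 of the RAS group lay within the Sham range, while replicates 2 and 3 lay far above it. In the log2 table all 3 lay above Sham, at 3.68, 6.66 and 6.81 against at most 0.99. The log2 fold change was 6.48 ± 1.39 (adjusted p = 0.0346, edgeR) and 6.99 without KRM RAS 1 (adjusted p = 3.37e-06), and the call was lost without any of the other 6 libraries (0.0513 to 0.113) or on blocking by replicate number (0.148).

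Markers of other kidney cells moved with these values. In KRM RAS 2 and 3, the libraries high in Ctgf, Tgfb2 and Tgfbr3, the 7 distal tubule markers summed to 4694 and 3512 CPM, against 12.3 to 227 CPM in Sham KRM and 134 CPM in KRM RAS 1. Kap, which had been put on that list, is a proximal tubule gene and was left out after its values were seen; with it the sums were 4891 and 3659, 102 to 590, and 507 CPM. The 8 fibroblast and pericyte markers summed to 368 and 455 CPM in these libraries, against 19.8 to 41.8 CPM in Sham KRM and 44.8 CPM in KRM RAS 1. For the 8 endothelial markers the sums were 207 and 177 CPM, against 10.2 to 22.7 CPM and 17.0 CPM. The 8 proximal tubule markers did not follow, at 584 and 549 CPM, against 240 to 1809 CPM in Sham KRM and 1003 CPM in KRM RAS 1. Among the defining genes, Umod of the thick ascending limb averaged 1152 CPM in RAS KRM and 30.4 CPM in Sham KRM, and the collecting duct channel Aqp2 averaged 337 and 0.01 CPM. The part of these cells in the Ctgf, Tgfb2, Tgfbr3 and Smad7 results was not tested. Outside KRM the highest Ctgf value, 48.8 CPM, was in CD11chiMϕ Sham 3, whose 7 distal tubule markers summed to 1690 CPM and whose proximal tubule markers to 11778 CPM, against 1.30 and 1.70 CPM of Ctgf in the other 2 libraries of that group. It decided the Ctgf difference between KRM and CD11chiMϕ of Sham kidneys, −4.23 ± 1.31 with it (adjusted p = 0.112, edgeR) and −0.60 without it.

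**Figure D4:**
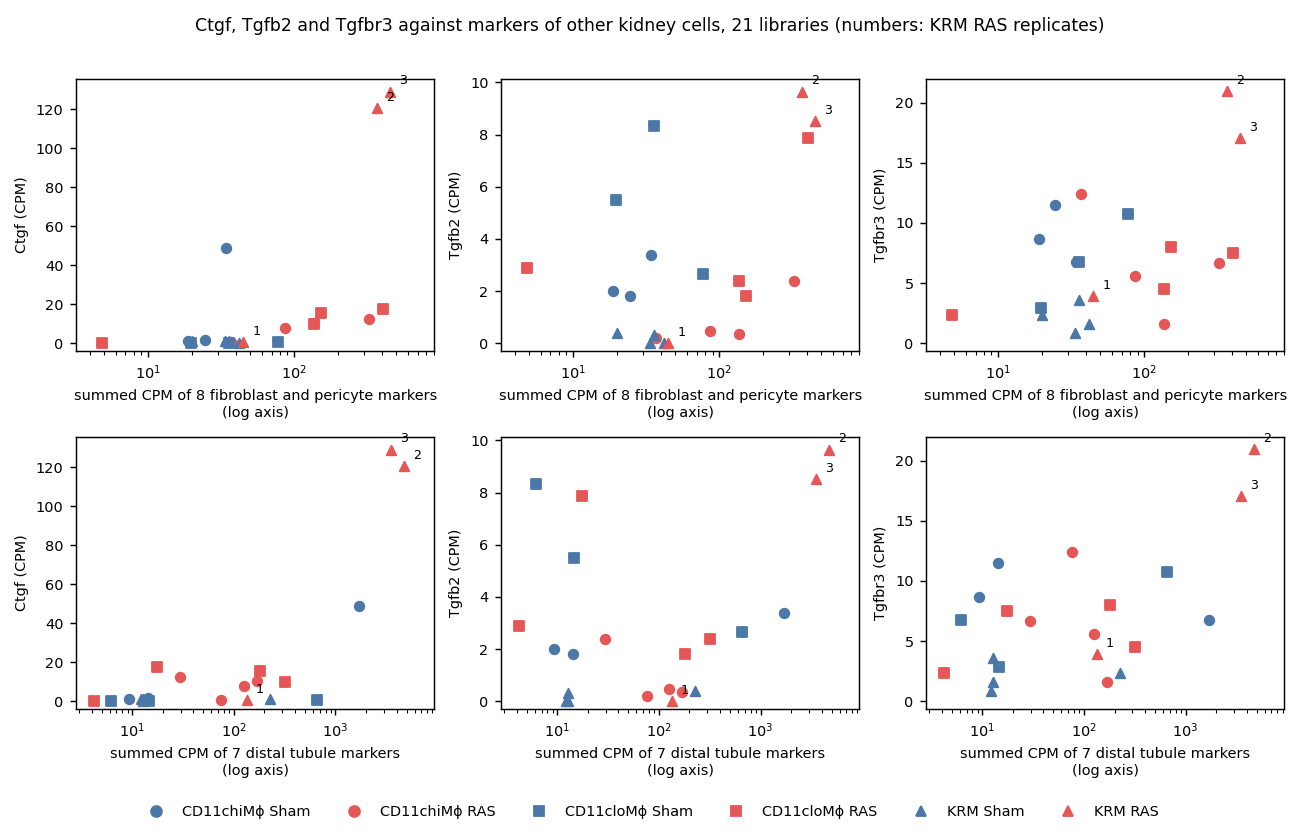
CPM of Ctgf, Tgfb2 and Tgfbr3 (vertical axes, linear) against the summed CPM of 8 fibroblast and pericyte markers (top) and 7 distal tubule markers (bottom; horizontal axes, log scale) in the 21 libraries, with shapes for the populations, blue for Sham and red for RAS. KRM RAS 2 and 3 have the highest Ctgf, Tgfb2 and Tgfbr3 values and stand at or near the right edge of each panel, and in these counts KRM RAS 1 lies among the other libraries.

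In CD11cloMϕ, Ctgf stood at 0.413, 0 and 0.774 CPM in Sham and at 0, 17.4, 10.1 and 15.4 CPM in RAS libraries. Replicate 1 of the RAS group, at 0, lay with the Sham libraries, and the change of 4.67 ± 1.64 did not pass (adjusted p = 0.553, edgeR). The fibroblast and pericyte markers summed to 4.84 CPM in that replicate and to 407, 136 and 153 CPM in the others, against 19.6 to 77.4 CPM in Sham. CD11chiMϕ of RAS kidneys repeated the split, with 0.844 CPM of Ctgf and 36.8 CPM of these markers in replicate 1, and 7.68 to 12.7 CPM of Ctgf and 86.4 to 325 CPM of the markers in the others. Their part in the Ctgf levels was not tested. Between KRM and CD11cloMϕ of RAS kidneys the groups overlapped in Ctgf, with a log2 fold change of 3.01 ± 1.54 for KRM (adjusted p = 0.212, edgeR). That difference was called on blocking by replicate number (3.34, adjusted p = 0.0152).

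Of the 8 genes tested for RAS against Sham in KRM, Tgfbi was the one called lower. It stood at 1144, 1166, 1073 and 1129 CPM in Sham and at 725, 434 and 530 CPM in RAS libraries, a drop present in each RAS library. The log2 fold change was −0.90 ± 0.18 (adjusted p = 0.0307, edgeR), and −1.15 without KRM RAS 1 (adjusted p = 4.03e-04). The call also held without KRM Sham 3 (adjusted p = 0.0367) and was lost without any of the other 5 libraries (0.0843 to 0.116), on blocking by replicate number (0.120) and in the single fit over 6 groups (0.107), and the fold was below 2. Macrophage markers summed to 4565 to 7745 CPM in the RAS libraries and to 8602 to 10966 CPM in Sham, and their part in the result was not tested.

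Between populations of RAS kidneys, Tgfbi was 2.85-fold lower in CD11chiMϕ than in CD11cloMϕ. CD11chiMϕ held 618, 347, 303 and 250 CPM and CD11cloMϕ 1051, 1161, 984 and 1127 CPM. The groups did not overlap and differed by −1.51 ± 0.30 on the log2 scale (adjusted p = 0.0194, edgeR). The call was lost without CD11chiMϕ RAS 3 (adjusted p = 0.0738), CD11chiMϕ RAS 4 (0.0640), CD11cloMϕ RAS 2 (0.0614) or CD11cloMϕ RAS 4 (0.0630). Dendritic cell markers summed to 962 to 5078 CPM in CD11chiMϕ and 83.3 to 376 CPM in CD11cloMϕ, and macrophage markers to 2095 to 5083 and 4463 to 9372 CPM, and their part in the result was not tested. KRM of RAS kidneys lay below all CD11cloMϕ libraries, by −0.90 ± 0.23 on the log2 scale with an adjusted p of 0.0508, which passed without KRM RAS 1 (−1.13, adjusted p = 0.0203) and without CD11cloMϕ RAS 3 (−0.92, adjusted p = 0.0414). In Sham kidneys Tgfbi stood at 1568, 1056 and 827 CPM in CD11cloMϕ, around the KRM values.

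Whether the response to RAS differed between populations was tested as an interaction. For KRM minus CD11chiMϕ 0 of 9 genes passed an adjusted p of 0.05 in edgeR, with 0% of all genes called, 4 genes at an unadjusted p under 0.05 (background 21.2%), also 4 with a fold above 2 (18.9%), and 3 called by DESeq2 (8.92%). The largest differences were 7.68 ± 2.05 for Ctgf (adjusted p = 0.101), 6.52 ± 1.95 for Tgfb2 and 3.30 ± 0.96 for Tgfbr3 (both adjusted p = 0.105). These 3 passed without KRM RAS 1, at adjusted p-values of 0.0199, 0.0214 and 0.0303, where 7.4% of all genes were called. The Ctgf value rests on CD11chiMϕ Sham 3, the tubule-rich library, and was 4.10 without it (adjusted p = 0.522). For KRM minus CD11cloMϕ 0 of 9 passed in edgeR against a background of 0.245%, with 6 at an unadjusted p under 0.05 (23.7%), 5 with a fold above 2 (16.4%) and 6 called by DESeq2 (10.4%). Without KRM RAS 1, where 16.1% of all genes were called, the genes called were Tgfb2 (6.02), Tgfb3 (−7.23), Tgfbr1 (−2.27), Tgfbr3 (3.47), Tgfb1 (−1.04) and Tgfbi (−1.08). The Tgfb3 value rests on 1 count in Sham CD11cloMϕ. It was −7.56 with every library and −5.46 without CD11cloMϕ RAS 3 (adjusted p = 0.0802).

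Across all 21 libraries Tgfbr1 and Tgfbr2 had a Pearson r of 0.89, as a description of log2 CPM over libraries that share populations, treatments and depth. Tgfbr3 did not follow them (r = −0.12 and −0.14). Of the ligands, Tgfb3 had 0.83 with Tgfbr1 and 0.77 with Tgfbr2. Smad7 and Tgfbi ran against each other (r = −0.86). The genes with patterns most like the receptors, of 8892 with a mean log2 CPM of at least 3, were Col14a1, BC031353 and Atg14 for Tgfbr1 (0.97, 0.96 and 0.96) and Tlr1, Nhlrc3 and Cep68 for Tgfbr2 (0.97, 0.95 and 0.95). For Tgfb3 they were Fblim1, Cttnbp2nl and Vcam1 (0.94 each), for Tgfb1 Akt1, Rhog and Nfam1 (0.97, 0.97 and 0.96), and for Tgfb2 Gadd45a, Ccdc109a and Mgst1 (0.89, 0.87 and 0.87). Ctgf was closest to Sparc, Col4a1 and Gpr56 (0.91, 0.90 and 0.89), of which Sparc and Col4a1 encode matrix proteins. Tgfbi was closest to 4632428N05Rik, Arap1 and Clec4a1 (0.96, 0.95 and 0.94), Smad7 to Tnip3, Rras2 and Ltbp3 (0.91, 0.91 and 0.90) and Tgfbr3 to Bcam, Pde12 and Slc12a2 (0.81, 0.75 and 0.71).

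The wider pathway was read from 60 further genes in 5 lists: latency and activation, receptors and co-receptors, SMADs and their regulators, other targets, and ligands of the superfamily. Against Sham CD11cloMϕ, Sham KRM were higher in 13 and lower in 20 of the 53 tested, 62.3% of them against 41.9% of all genes. Of the 9 latency genes tested 4 were lower, among them Thbs1, whose product activates latent TGF-β (−6.20 ± 0.37, adjusted p = 8.78e-06, edgeR), and Ltbp1, which binds the latent complex to matrix (−5.73 ± 0.96, adjusted p = 0.00205). Itgav, the integrin chain that releases ligand, was higher (1.04 ± 0.25, adjusted p = 0.0110). The matrix target Fn1 was lower, at 19.3 CPM in KRM against 3399 CPM in CD11cloMϕ (−7.49 ± 0.25, adjusted p = 9.21e-07). Of 9 receptors tested 4 were higher and 0 lower, a share called of 44.4%, near that of all genes, led by Acvr2b (2.31 ± 0.33) and Acvrl1 (2.02 ± 0.13). SMADs and regulators went both ways, with 6 higher and 8 lower of 18, the feedback inhibitor Pmepa1 higher by 3.38 ± 0.36 and the decoy receptor Bambi lower by −2.58 ± 0.22. The median log2 fold change of the 53 genes was −0.51, against −0.04 over all genes.

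Against Sham CD11chiMϕ the same 5 lists gave 1 gene higher and 4 lower of 51 tested, 9.8% against 5.13% of all genes. Fn1 (−5.20 ± 0.49), Ltbp1 (−5.15 ± 0.88), Thbs1 (−3.12 ± 0.59) and Id3 (−3.06 ± 0.66) were lower and Pmepa1 was higher (1.28 ± 0.27), with adjusted p-values of 0.00367 to 0.0429 in edgeR. Without CD11chiMϕ Sham 3 the counts were 7 higher and 8 lower (13.6% of all genes called), without any 1 KRM library 0 and 1 (1.27% to 1.84%), and on blocking by replicate number 0 and 2 (0.719%). Between CD11chiMϕ and CD11cloMϕ of Sham kidneys 0 of 53 were called in edgeR (background 1.52%), 2 higher and 8 lower in DESeq2 (10.5%), and 2 higher and 8 lower at an unadjusted p under 0.05 with a fold above 2 (12.6%). Blocking by replicate number gave 2 higher and 1 lower (4.92%), and without CD11chiMϕ Sham 3 1 and 2 (5.7%). In RAS kidneys KRM were higher than CD11chiMϕ in 7 and lower in 1 of 58 (13.8% against 9.23% of all genes), with Itgb6 (4.30 ± 0.96), Bmpr1a (4.49 ± 0.92) and Cyr61 (3.89 ± 0.59) higher and Fn1 lower (−4.17 ± 0.35). Without KRM RAS 1 the number higher was 18 (19.6% of all genes called) and without CD11chiMϕ RAS 1 it was 11 (17.6%), and without any of the other 5 libraries it was 0 (0.103% to 1.56%). On blocking by replicate number 1 of the 58 was called (0.764%). Distal tubule markers summed to 134 to 4694 CPM in RAS KRM and 29.3 to 169 CPM in RAS CD11chiMϕ. Endothelial markers summed to 17.0 to 207 and 29.1 to 89.1 CPM, and dendritic cell markers to 110 to 167 and 962 to 5078 CPM. Their part was not tested. Against CD11cloMϕ of RAS kidneys 3 were higher and 4 lower of 60 (11.7% against 9.17%), which became 11 and 5 without KRM RAS 1 (23% of all genes called), 6 and 6 without CD11cloMϕ RAS 3 (16.2%), and 0 and 0 without KRM RAS 2 or 3 (0%). In the same kidneys CD11chiMϕ against CD11cloMϕ gave 1 higher, the latency gene Ltbp3 (1.99 ± 0.51), and 5 lower, among them Thbs1 (−5.08 ± 0.76) and Bambi (−1.29 ± 0.24), 10.5% of the 57 tested against 8.27% of all genes. The Ltbp3 call was lost without any library other than CD11chiMϕ RAS 1. The number lower was 3 without CD11chiMϕ RAS 3 (2.02% of all genes called), CD11chiMϕ RAS 4 (2.15%) or CD11cloMϕ RAS 4 (2.36%), 2 without CD11cloMϕ RAS 2 (2.41%), 7 without CD11chiMϕ RAS 1 (17.3%), and 5 or 6 without any of the other 3 (4.74% to 8.13%).

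**Figure D5:**
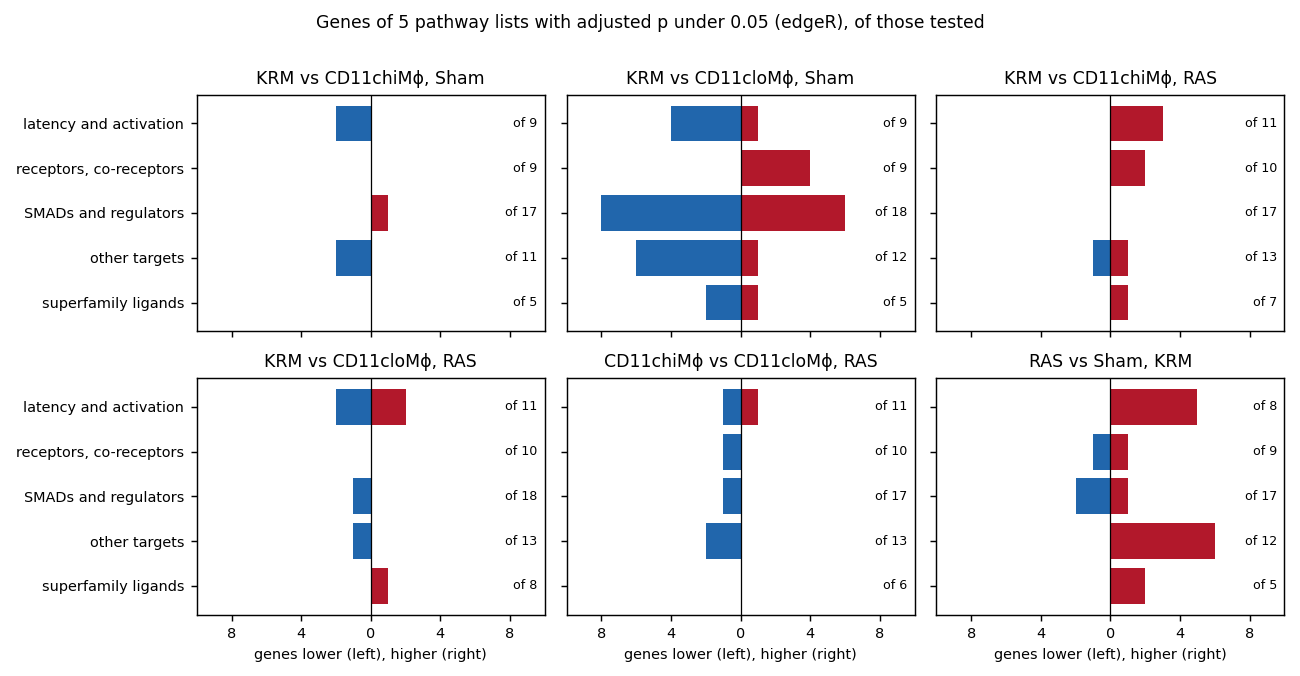
Number of genes of 5 pathway lists lower (blue, left of 0) or higher (red, right of 0) at an adjusted p under 0.05 in edgeR, on the horizontal axis, for 6 comparisons, with the number tested at the right of each bar. KRM against CD11cloMϕ of Sham kidneys gives the most calls, 13 higher and 20 lower, and RAS against Sham in KRM gives 15 higher and 3 lower.

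RAS against Sham in KRM called 15 of the 51 pathway genes tested as higher and 3 as lower, 35.3% against 9.7% of all genes, and their median log2 fold change was 0.57, against 0.02 over all genes. Of the 8 latency genes tested 5 were higher, among them Ltbp4 (4.43 ± 0.99, adjusted p = 0.0371, edgeR) and Itgb6, the epithelial integrin chain that activates TGF-β (3.60 ± 0.86, adjusted p = 0.0420). Of 12 other targets 6 were higher, led by the smooth muscle gene Tagln (5.44 ± 1.23, adjusted p = 0.0376) and collagen Col1a1 (4.71 ± 0.85, adjusted p = 0.0268). Col1a1 and a further gene of the target list, Col1a2, are also on the fibroblast and pericyte list. Col1a2 averaged 59.7 CPM in RAS KRM and 4.17 CPM in Sham KRM. The superfamily ligands Gdf15 (3.78 ± 0.74) and Bmp7 (3.40 ± 0.56), the latter made by the tubule, were higher with adjusted p-values of 0.0293 and 0.0231. The receptor Acvrl1 fell by 0.69 on the log2 scale (SE 0.16, adjusted p = 0.0408) and Nrp1 rose by 0.55 ± 0.12 (adjusted p = 0.0358). Without KRM RAS 1 the counts were 37 higher and 6 lower of 60 tested, where 50.2% of all genes were called, and without any of KRM RAS 2, RAS 3, Sham 1, Sham 2 or Sham 4 they were 0 and 0 (0.204% to 0.338% of all genes), and without KRM Sham 3 10 and 1 (10.6%). On blocking by replicate number 0 of the 51 were called (0.327% of all genes). The distal tubule, fibroblast and endothelial marker sums given above moved with these genes, and their part was not tested. In CD11chiMϕ and CD11cloMϕ 0 of 55 and 0 of 57 pathway genes were called by edgeR for RAS against Sham. DESeq2 called 5 higher and 1 lower in CD11chiMϕ (background 1.57%) and 1 higher in CD11cloMϕ (0.883%). At an unadjusted p under 0.05 with a fold above 2 there were 9 higher and 2 lower in the former (8.07%) and 8 higher in the latter (4.37%).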

How the data were processed

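RNA from 21 sorted macrophage libraries was amplified with the SMART-Seq v4 Ultra Low Input kit, and the authors aligned paired-end reads to mm10 with OmicSoft OSA and Ensembl annotation. The authors deposited estimated counts per gene, of which 9.7% to 14.2% per library were not whole, and a second table on the log2 scale, log2(TPM + 1), quantile normalized. Samples were grouped by population and treatment from the labels, and 0 columns were left unmapped. Counts were rounded and the 37620 lines summed to 34236 symbols. The members, the pathway and marker lists and the tests were chosen with earlier results of these data known.

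Each comparison was fitted to its own groups only, with R 4.3.3 and edgeR 4.0.16. Low genes were dropped by filterByExpr (minimum count 10, minimum total 15), libraries were scaled by TMM, and the two-sided quasi-likelihood F test was followed by Benjamini-Hochberg adjustment over all genes tested, with calls at 0.05. The 11 comparisons were the 3 pairs of populations in Sham and in RAS kidneys, RAS against Sham in each population, and 2 interactions. Standard errors were derived from the fold change and the F statistic, and log2 CPM used a prior count of 2. Named pathway genes are, per list, comparison and direction, up to 2 called genes with the largest fold change. DESeq2 1.42.0 and other scalings, filters and samples were alternatives, and each library was left out in turn. Same-numbered Sham libraries of different populations correlated in their deviations from the group means at 0.201 to 0.647. The main fits did not use this pairing, so calls and adjusted p-values are unpaired unless a block is named. Blocking by replicate number was an alternative setting, and its values stand beside many of the results that it altered. Replicate 3 carries most of this correlation. CD11chiMϕ 1 and CD11cloMϕ 2 correlated at 0.482, above the 0.349 of CD11chiMϕ 1 and CD11cloMϕ 1. Pairing by number is therefore not settled for replicates 1 and 2. Same-numbered RAS libraries correlated at 0.0535 to 0.505, and their pairing is not settled either. The most alike pair of replicates, CD11chiMϕ RAS 3 and 4, differed by more than counting error (chi-square per degree of freedom 4.95), and 0 pairs were treated as duplicates. Sequences came from RefSeq. The scripts were tested on simulated data.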

Additional observations from a re-analysis of the deposited data

Results flagged for a closer look

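Of 27 sets of 4 libraries (each gene in each group of 4), 4 held a library far from the other 3 by Dixon's criterion, which chance gives in about 1 in 20. Tgfb1 was at 100.9 CPM in CD11chiMϕ RAS 2, where the others held 173 to 187. Tgfb2 was at 2.38 CPM in the same library, where the others held 0.187 to 0.473. Tgfb3 was at 33.0 CPM in CD11cloMϕ RAS 3, against 0.618 to 4.14 in the others. Tgfbr1 was at 475 CPM in CD11chiMϕ RAS 1, against 81.3 to 102 in the others.

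Tgfb3 moved in opposite directions under RAS in the monocyte-derived populations. Every CD11chiMϕ RAS library lay below every Sham library, with a log2 fold change of −1.53, and every CD11cloMϕ RAS library lay above every Sham library, with 7.62. The latter rests on 1 count in Sham, with a ratio of summed counts of 256 and a 95% counting interval of 45.6 to 10141, and without CD11cloMϕ RAS 3 the ratio was 56.4 (9.72 to 2268). Neither change passed adjustment in edgeR, at adjusted p-values of 0.508 and 0.553, and the difference between these populations was not tested.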

How the results depend on the processing

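Depth limits Tgfb2, Tgfb3, Tgfbr3 and Ctgf, which had 0 to 50 counts in many libraries, and groups of 3 or 4 libraries limit every call. Scaling by total library size moved the median log2 fold change of all genes from 0.03 to 0.26 in KRM against CD11chiMϕ of RAS kidneys, from 0.06 to 0.27 in KRM against CD11cloMϕ of RAS kidneys, and from 0.09 to 0.26 in the interaction of KRM and CD11chiMϕ. The causes of the differences below were not tested.

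The share of all genes called under the same setting follows each count in brackets. For KRM against CD11chiMϕ of Sham kidneys, 2 genes were called (5.13%), against 5 with DESeq2 (15.5%), 3 with median-of-ratios size factors (5.14%), 1 with total library size (4.13%), 0 without the filter (1.97%), 0 in a single fit over 6 groups (4.38%), 0 with the replicate number as a block (0.719%), 6 at an unadjusted p with a fold above 2 (12.5%), 4 with the Sham 3 libraries left out together (12.1%, chosen after seeing the data), and 0 to 4 with 1 library left out (1.27% to 13.6%). For KRM against CD11cloMϕ of Sham kidneys the count of 6 (41.9%) became 3 with 10 counts required in every library (44.7%), was 4 in the single fit (23.8%) and 5 to 6 with 1 library left out (32.8% to 47.1%). For CD11chiMϕ against CD11cloMϕ of Sham kidneys 1 was called (1.52%), against 2 with DESeq2 (10.5%), the single fit (5.64%) or the block (4.92%), 0 without the filter (0.483%) or with 10 counts in every library (1.4%), 4 unadjusted (12.6%), 5 without the Sham 3 libraries (15.7%) and 0 to 2 with 1 library left out (0% to 5.7%). In RAS kidneys, KRM against CD11chiMϕ gave 1 (9.23%), against 3 with DESeq2 (20.9%), 0 with the block (0.764%), 4 unadjusted (20.8%) and 0 to 4 with 1 library left out (0.103% to 19.6%). KRM against CD11cloMϕ gave 0 (9.17%), against 3 with DESeq2 (24.5%), 1 with median-of-ratios factors (9.48%), total library size (11.4%), the single fit (12.7%) or the block (8.48%), 2 with 10 counts in every library (13.1%), 2 unadjusted (20.3%), 4 without KRM RAS 1 and CD11cloMϕ RAS 3 (31%, chosen after seeing the data) and 0 to 4 with 1 library left out (0% to 23%). CD11chiMϕ against CD11cloMϕ gave 2 (8.27%), against 1 with median-of-ratios factors (8.22%), 3 unadjusted (14.2%) and 0 to 2 with 1 library left out (2.02% to 17.3%). RAS against Sham gave 0 in CD11chiMϕ (0%; 1 unadjusted, 8.07%; 0 to 0 with 1 library left out, 0% to 0.314%), 0 in CD11cloMϕ (0%; 1 with DESeq2, 0.883%; 4 unadjusted, 4.37%; 0 to 0, 0%) and 4 in KRM (9.7%; 2 with 10 counts in every library, 6.92%; 0 with the block, 0.327%; 0 to 7 with 1 library left out, 0.204% to 50.2%). The interactions gave 0 each (0% and 0.245%), with 3 and 6 in DESeq2 (8.92% and 10.4%), 4 and 5 unadjusted (18.9% and 16.4%), 6 in the latter without KRM RAS 1 and CD11cloMϕ RAS 3 (16.4%), and 0 to 3 (0% to 7.4%) and 0 to 6 (0% to 16.1%) with 1 library left out. Same-numbered RAS libraries of different populations deviated together at 0.053 to 0.505, so whether the RAS numbers pair libraries is not settled. For RAS against Sham the block joins libraries of different animals by number. In KRM those pairs correlated at −0.167 to 0.211, and with the block 0 of the members were called. The labels give no ground for this pairing, so the lost calls do not show an effect of pairing.

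No called gene changed sign. Of the genes not called, the sign turned with 1 library left out for Tgfb1 in KRM against CD11chiMϕ of Sham kidneys (−0.039 to 0.68), for Tgfbi (−0.26 to 0.25) and Smad7 (−0.28 to 0.088) in KRM against CD11cloMϕ of Sham kidneys, and for Tgfbr3 (−0.28 to 0.55), Tgfbr1 (−1.26 to 0.29) and Tgfb3 (−2.20 to 0.36) in CD11chiMϕ against CD11cloMϕ of RAS kidneys. For RAS against Sham it turned for Tgfb1 (−0.12 to 0.59) and Ctgf (−1.82 to 2.32) in CD11chiMϕ, for Tgfbi (−0.27 to 0.17), Tgfbr3 (−0.68 to 0.22) and Tgfb1 (−0.18 to 0.075) in CD11cloMϕ, and for Tgfb3 (−0.21 to 0.46) in KRM. In the interaction of KRM and CD11chiMϕ it turned for Tgfbi (−0.65 to 0.26, and 0.057 with total library size), Tgfbr1 (−0.086 to 1.81) and Tgfbr2 (−0.15 to 0.89). Without the Sham 3 libraries Smad7 in KRM against CD11cloMϕ was at 0.13 and Tgfbi in that interaction at 0.26. With the block Tgfbi was at 0.0098 in KRM against CD11cloMϕ of Sham kidneys and Tgfb2 at −0.19 in KRM against CD11cloMϕ of RAS kidneys. Of 798 values of single genes with 1 library left out, 689 kept their direction and their side of the threshold, 59 lost a call and 30 gained one, and of 807 under the other settings 708 kept them, 22 lost a call and 72 gained one.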
